A study of Homo sapiens with 9 samples.

Results

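Expression of 10 kinesins that work in cell division (KIF11, KIF14, KIF15, KIF18A, KIF20A, KIF20B, KIF23, KIF2C, KIF4A and KIFC1) was followed over 9 arrays of H2009 cells, a human lung adenocarcinoma line. The members were chosen by gene name, with earlier results of these data known, as were the gene lists set beside them. Counts of members or listed genes beside the share of all genes are therefore descriptions, not tests. Each member was measured by 1 probe set, and they are 10 of 23931 genes in all. All 9 cultures carried CRISPRa, a Cas9 without endonuclease activity fused to the activating domains VP64, p65 and Rta, and all grew under blasticidin. The control cells held an empty sgRNA vector, and the cells of the other groups held sgRNA-A or sgRNA-B, guides made to raise the microRNAs of the 14q32 locus; each group had 3 arrays, called biological replicates in the labels. Each guide was represented by 1 cell clone, so guide and clone cannot be told apart. The p-values set differences between groups only against the spread of repeat cultures of 3 cell populations, not of independent clones. The labels state that cells were not treated. The comparisons ask which messenger RNAs differ from control in cells made to overexpress these microRNAs, whose own levels were not analysed here.

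Kinesins are motors that use ATP to walk along microtubules or to take their ends apart. In dividing cells they push spindle poles apart, bring chromosomes to the spindle's middle, bundle the central spindle and complete cytokinesis. Many of their genes are transcribed mostly in G2 and mitosis, under the factors FOXM1 and MYBL2 with the MuvB complex, which reads a promoter element called the cell cycle genes homology region (CHR), often next to boxes bound by NF-Y. Expression of such genes in a culture therefore moves with the share of dividing cells. In these bulk samples, more cells in mitosis and more RNA per cell cannot be told apart.

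Promoter windows show what the members share in sequence. RefSeq windows (GRCh38.p14) running from 250 bases before to 50 bases after the annotated gene start were found for all 10 members. The canonical CHR letters TTTGAA, the variant TTTAAA and the NF-Y letters CCAAT were searched on both strands; TTTAAA reads the same on both, and no match overlapped another motif in a member. TTTGAA was present in 8 of the 10 windows, against 15.2% of all 35116 windows of that length. CCAAT was present in 8 of 10, against 34.6%, and TTTAAA in 4 of 10, against 12.2%. These motifs were not particular to the members. Among genes with a window, CCAAT was found for 94.4% of G2 and M phase control genes, 62.5% of S phase genes and 72.7% of tubulins. TTTAAA was found for 38.9% of the phase control genes. TTTGAA was found for 8 of 11 direct partners of kinesins, but for only 2 of 8 other kinesins of cell division. The 2 members without TTTGAA were KIF20A and KIF2C, which both held TTTAAA, and these are the 2 members that rose. KIF2C did not pass with sgRNA-B (adjusted p = 0.0726, limma), and its sgRNA-A call was lost in 7 of 20 alternative fits. Whether risen genes of the other lists divide by motif in the same way was not tested. The other members with TTTAAA were KIF14 (198 bases before the start) and KIF23 (211 bases before it), which held TTTGAA as well and did not pass the test. The motifs were chosen after the expression values were known, and a match is a description of letters, not of a bound site.

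The stretches below run from 110 bases before the start to 10 bases from it, 5′ to 3′, with motif letters in capitals. The windows of KIF20A and KIF2C are shown because these members rose and lack TTTGAA, and those of KIF14 and KIF23 as members with both motifs, the variant lying outside the printed stretch, whose arrays did not overlap the controls. KIF4A stands beside its close copy KIF4B. They lie at chr5:138179002-138179121 (plus strand), chr1:44739727-44739846 (plus strand), chr1:200620742-200620861 (minus strand), chr15:69414239-69414358 (plus strand), chrX:70289994-70290113 (plus strand) and chr5:155013645-155013764 (plus strand), in that order.
KIF20A: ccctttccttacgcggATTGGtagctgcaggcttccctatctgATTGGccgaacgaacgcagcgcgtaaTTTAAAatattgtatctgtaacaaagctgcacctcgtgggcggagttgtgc
KIF2C: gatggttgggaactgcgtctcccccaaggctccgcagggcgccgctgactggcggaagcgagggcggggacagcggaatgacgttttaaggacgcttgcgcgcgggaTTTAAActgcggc
KIF14: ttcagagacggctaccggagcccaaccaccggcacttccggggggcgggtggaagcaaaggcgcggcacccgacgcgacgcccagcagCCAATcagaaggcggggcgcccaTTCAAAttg
KIF23: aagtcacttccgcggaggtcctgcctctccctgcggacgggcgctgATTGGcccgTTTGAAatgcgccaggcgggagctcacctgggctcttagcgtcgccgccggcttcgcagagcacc
KIF4A: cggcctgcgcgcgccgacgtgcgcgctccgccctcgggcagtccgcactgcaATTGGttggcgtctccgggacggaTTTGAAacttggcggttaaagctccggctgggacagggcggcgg
KIF4B: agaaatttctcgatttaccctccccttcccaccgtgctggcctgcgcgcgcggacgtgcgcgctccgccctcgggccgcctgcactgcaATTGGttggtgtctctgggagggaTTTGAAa
In KIF20A, the variant began 41 bases before the start, with NF-Y letters 67 and 94 bases before it, both on the reverse strand (printed as ATTGG). In KIF2C, the variant began 3 bases before the start and no CCAAT was found in the window. KIF15 was the other member without CCAAT. Its TTTGAA began 35 bases before the start, against 28 in KIF11, 34 in KIF4A, 55 in KIF23 and 10 in KIF18A. In KIF14, KIFC1 and KIF20B the match lay after the annotated start.

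**Figure D1:**
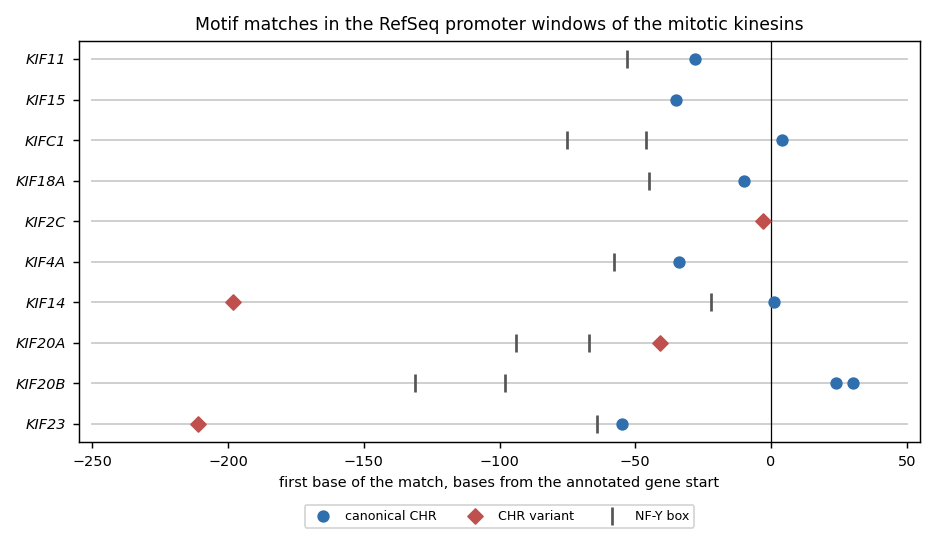
Positions of motif matches in the promoter windows of the 10 mitotic kinesins; the x axis gives the first base of each match in bases from the annotated start (0), blue circles mark TTTGAA, red diamonds TTTAAA and grey bars CCAAT. KIF20A and KIF2C have a red diamond near the start and no blue circle, and the other 8 members have a blue circle within 55 bases of the start.

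The arrays gave 1 level per gene in log2 units, so a difference of 1 is a doubling. Medians of the 9 arrays were 4.91 each, and correlations between arrays were 0.997 to 0.998 within groups and 0.996 to 0.998 between groups. The array of sgRNA-A replicate 1 held a different set of values (22951 distinct values, against 7465 shared by the other 8 arrays), but its sorted values lay within 0.00187 of theirs. Replicate 3 of sgRNA-A lay farthest from its own group, at a root mean square distance of 0.185, against 0.148 to 0.172 for the other arrays. All 9 measured epithelial markers lay above the level of silent genes, taken as the 95th percentile of 355 olfactory receptor genes (4.44). Above it lay also 2 of 8 fibroblast markers, 2 of 7 endothelial markers and 2 of 7 leukocyte markers. The pan-leukocyte gene PTPRC was not among the latter, at 3.58 to 3.63 on every array. CD68, which was among them, rose by 0.27 with the mean of both guides (adjusted p = 0.00451, limma), and the mean level of the 7 leukocyte markers was 4.59 to 4.69 in control, 4.68 to 4.76 with sgRNA-A and 4.66 to 4.68 with sgRNA-B. The part of this in the kinesin values was not tested. Every array lay above 4.44 for all 10 members, and no filter on dim genes was used.

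KIF20A rose in both clones, KIF2C rose with sgRNA-A, and no member fell. A gene is said to have risen or fallen when limma's p, adjusted by Benjamini and Hochberg over all 23931 genes, was below 0.05. With sgRNA-A, 2 of 10 members rose, against 0.957% of all genes. With sgRNA-B, 1 of 10 rose, against 1.56% of all genes. The median log2 fold change of the members was 0.10 with sgRNA-A (all genes 0.0036) and 0.11 with sgRNA-B (all genes -0.0039), and 7 and 9 members lay above 0, against 51.7% and 48.4% of all genes. Genes called lower made up 1.22% of all genes with sgRNA-A and 1.51% in the other clone, and no member was among them. At an unadjusted p below 0.05, 4 members were higher in sgRNA-A cells (6.68% of all genes) and 5 in sgRNA-B cells (7.42%). Both comparisons use the same 3 control arrays. Members with all 3 arrays above all control arrays numbered 4 with sgRNA-A (8.98% of all genes) and 5 with sgRNA-B (9.67%).

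**Figure D2:**
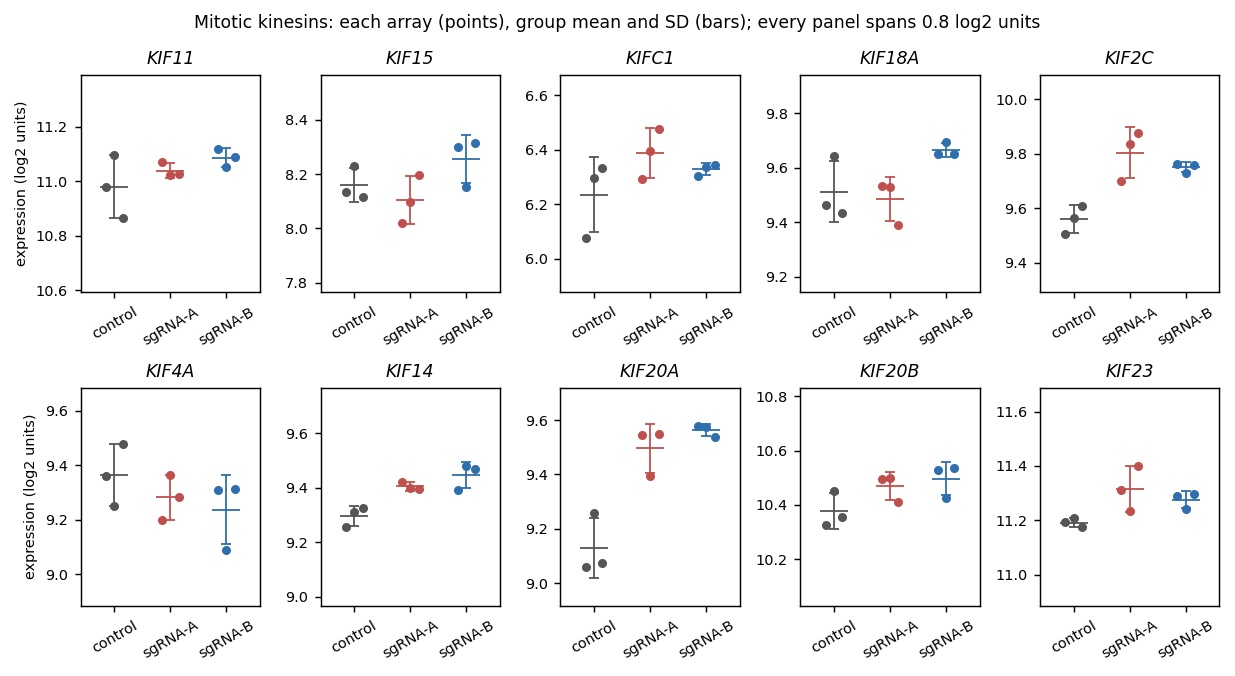
Log2 expression of each mitotic kinesin (y axis) in the 3 arrays of control, sgRNA-A and sgRNA-B cells (x axis); points are arrays, horizontal bars group means and whiskers SD, and every panel spans 0.8 log2 units. KIF20A, KIF2C, KIF14 and KIF23 have all 6 arrays with a guide above the 3 control arrays, while KIF4A, KIF15 and KIF11 overlap.

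The members of cytokinesis included the member with the largest change. KIF20A, also called MKLP2, carries the chromosomal passenger complex to the central spindle and binds the kinase PLK1 there. It measured 9.06, 9.26 and 9.07 log2 units in the control arrays, 9.55, 9.39 and 9.55 with sgRNA-A, and 9.58, 9.58 and 9.54 with sgRNA-B. All 6 arrays with a guide lay above all control arrays, control replicate 2 was the highest control and sgRNA-A replicate 2 the lowest of the rest. The log2 fold change was 0.37 with sgRNA-A (SE 0.06, 1.29-fold, 95% confidence interval 0.23 to 0.50; adjusted p = 0.00877, limma) and 0.43 with sgRNA-B (SE 0.06, 1.35-fold, 0.30 to 0.57; adjusted p = 0.00221, limma). By unadjusted p, KIF20A ranked 145 of 23931 genes with sgRNA-A and 101 in the other clone. A difference between the clones was not called, at -0.07 for sgRNA-A against sgRNA-B with an interval of -0.20 to 0.07. The call held when each array was left out in turn: for sgRNA-A the adjusted p in limma ran from 0.00408 to 0.0499 (without control replicate 1), and was 0.0434 without sgRNA-A replicate 1 and 0.0462 without replicate 3.

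KIF20A belongs to the kinesin-6 family with KIF20B and KIF23, which were higher by less. KIF23, or MKLP1, forms the centralspindlin complex with RACGAP1 and anchors the midbody. It measured 11.20, 11.21 and 11.17 in control, 11.31, 11.23 and 11.40 with sgRNA-A and 11.29, 11.24 and 11.30 with sgRNA-B. No array with a guide overlapped the controls, whose spread was small (SD 0.02, n = 3). The log2 fold change was 0.12 (SE 0.04) and 0.08 (SE 0.04), and neither passed the test (adjusted p = 0.192 and 0.392, limma). KIF20B, or MPP1, acts in midbody maturation and abscission. It measured 10.33, 10.45 and 10.36 in control, 10.50, 10.50 and 10.41 with sgRNA-A and 10.53, 10.43 and 10.54 with sgRNA-B, so that control replicate 2 overlapped 1 array of each clone. Its log2 fold changes of 0.09 and 0.12 (SE 0.05 each) did not pass.

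KIF14 recruits citron kinase (CIT) to the central spindle and midbody. It measured 9.26, 9.31 and 9.33 in control, 9.42, 9.40 and 9.39 with sgRNA-A and 9.39, 9.48 and 9.47 with sgRNA-B. All 6 arrays with a guide lay above the controls. The difference was 0.11 with sgRNA-A (SE 0.05; adjusted p = 0.339, limma) and 0.15 with sgRNA-B (SE 0.05; adjusted p = 0.122, limma), and 0.13 over both (SE 0.04; adjusted p = 0.119, limma), which did not pass. The interval for both, 0.04 to 0.22, bounds how much it differed.

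Among the members that act on chromosomes and microtubule ends, KIF2C stood above control. KIF2C, or MCAK, takes microtubule ends apart at centromeres and helps to correct wrong attachments. It measured 9.51, 9.56 and 9.61 in control, 9.70, 9.84 and 9.88 with sgRNA-A and 9.76, 9.73 and 9.76 with sgRNA-B, again with no overlap of the controls. It rose with sgRNA-A (0.25, SE 0.05, 1.19-fold; adjusted p = 0.0299, limma) and did not pass with sgRNA-B (0.19, SE 0.05, 1.14-fold; adjusted p = 0.0726, limma). The difference between the clones, 0.05 with an interval of -0.06 to 0.17, was not called. With the mean of both guides it rose by 0.22 (SE 0.05; adjusted p = 0.0172, limma). The sgRNA-A call was lost without sgRNA-A replicate 2 (adjusted p = 0.0971, limma), sgRNA-A replicate 3 (0.126), the first control array (0.137) or control replicate 2 (0.0652), and was 0.0189 without sgRNA-A replicate 1; the call over both guides was lost without control replicate 1 (0.112). The sgRNA-B difference was called without sgRNA-A replicate 1 (0.0496), an array that enters only the estimate of the spread.

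KIF18A, which limits chromosome oscillation at the spindle's middle, followed the clones unequally. It measured 9.46, 9.64 and 9.43 in control, 9.53, 9.53 and 9.39 with sgRNA-A and 9.65, 9.70 and 9.65 with sgRNA-B. The sgRNA-B arrays lay above all others, though by only a narrow margin over control replicate 2, while the sgRNA-A arrays overlapped the controls. The difference from control was -0.03 with sgRNA-A (SE 0.06) and 0.15 with sgRNA-B (SE 0.06; adjusted p = 0.243, limma). Between the clones it was -0.18 for sgRNA-A against sgRNA-B (interval -0.31 to -0.05), the largest such difference among the members, with an unadjusted p of 0.0107 and an adjusted p of 0.331 in limma. It was 1 of 10 members below an unadjusted p of 0.05 in that direction, against 5.24% of all genes, and the 1 member whose sgRNA-A arrays all lay below the sgRNA-B arrays, against 7.34%. None of the 10 members was called between the clones, against 0.104% of all genes, in limma.

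KIF4A was the 1 member below control on average in both clones. KIF4A is a chromokinesin that, with PRC1, sets the length of the central spindle. It measured 9.36, 9.25 and 9.48 in control, 9.20, 9.36 and 9.28 with sgRNA-A and 9.31, 9.09 and 9.31 with sgRNA-B. The groups overlapped, and the differences of -0.08 (SE 0.07, interval -0.24 to 0.08) and -0.13 (SE 0.07, interval -0.29 to 0.03) did not pass. KIF4B, an intronless copy of KIF4A, has its own probe set, which measured 8.12, 8.20 and 8.30 in control, 8.54, 8.39 and 8.19 with sgRNA-A and 8.70, 8.28 and 8.40 with sgRNA-B. Its differences were of the opposite sign, 0.17 (SE 0.11) and 0.26 (SE 0.11), and did not pass either. The full promoter windows of the pair share an unbroken run of 50 bases, which lies mostly beyond the end of the KIF4B stretch printed above, with 103 of 110 bases identical around it, and the sequences of the probes were not used here. Whether transcripts of one copy bind the other's probes was not tested, so values of both are uncertain.

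None of the 3 members that build the bipolar spindle passed the test against control. KIF11, or Eg5, slides antiparallel microtubules to separate the poles and is the target of several antimitotic drugs. It measured 10.98, 11.10 and 10.87 in control, 11.07, 11.02 and 11.03 with sgRNA-A and 11.12, 11.05 and 11.09 with sgRNA-B. Control replicate 2 lay among the arrays with a guide, and control replicates 1 and 3 lay below all of them (control SD 0.12, n = 3). The differences were 0.06 (interval -0.05 to 0.17) and 0.11 (interval -0.003 to 0.22). KIF15, which can keep the poles apart when KIF11 is blocked, measured 8.13, 8.23 and 8.12 in control, 8.02, 8.10 and 8.20 with sgRNA-A and 8.30, 8.15 and 8.31 with sgRNA-B. Its mean was lowest with sgRNA-A (-0.06 from control, SE 0.07) and highest with sgRNA-B (0.10, SE 0.07), and neither passed. Between the clones it differed by -0.15 for sgRNA-A against sgRNA-B (SE 0.07, interval -0.30 to 0.001; unadjusted p = 0.0516, adjusted p = 0.480, limma). KIFC1, or HSET, walks to the minus end and clusters poles, as cells with extra centrosomes need. It measured 6.08, 6.29 and 6.33 in control, 6.29, 6.3955 and 6.48 with sgRNA-A and 6.30, 6.34 and 6.34 with sgRNA-B. Control replicate 1 lay lowest, and the differences of 0.15 and 0.09 had an SE of 0.10, the largest among the members, and intervals of -0.07 to 0.37 and -0.13 to 0.32.

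**Figure D3:**
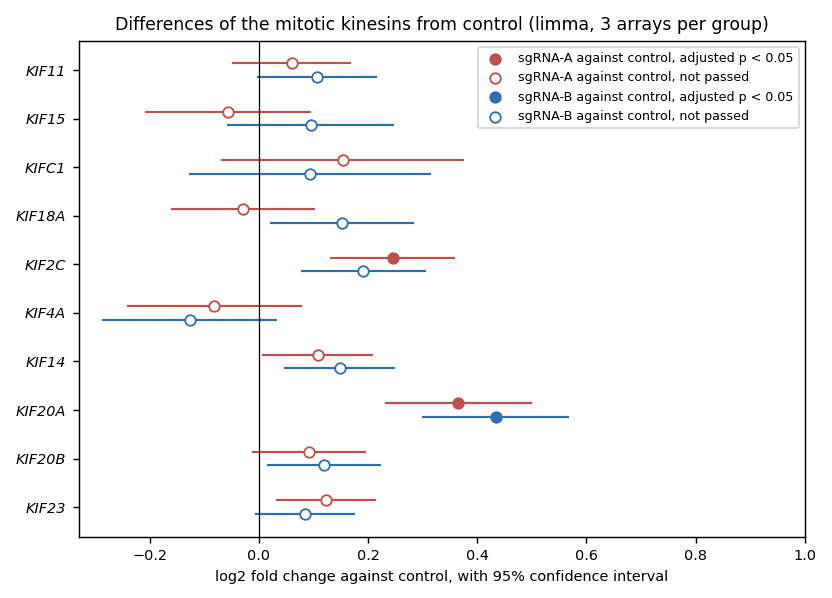
Log2 fold change of each mitotic kinesin against control (x axis) for sgRNA-A (red) and sgRNA-B (blue), with 95% confidence intervals as lines; filled points have a limma adjusted p below 0.05. KIF20A lies at 0.37 and 0.43, KIF2C at 0.25 and 0.19, and KIF4A lies left of 0 in both.

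With arrays of both guides set against the control arrays, the same 2 members rose, KIF20A (0.40, SE 0.05, 1.32-fold; adjusted p = 0.00111, limma) and KIF2C, against 1.77% of all genes called higher; no member fell, against 1.80% called lower. Above 0 lay 9 members, against 50.4% of all genes. A further 3 members, KIF14, KIF23 and KIF20B, had an unadjusted p below 0.05, which made 5 of 10 members against 7.28% of all genes. All 6 arrays with a guide lay above all 3 controls for 4 members, against 4.08% of all genes. The mean of the members' deviations from their own 9-array means was -0.12, -0.03 and -0.08 in control replicates 1, 2 and 3, 0.002 to 0.04 with sgRNA-A and 0.02 to 0.07 with sgRNA-B. Control replicate 2 lay nearest the other groups. Without KIF20A and KIF2C, it lay within them, at 0.002 against -0.02 to 0.01 with sgRNA-A and 0.0006 to 0.07 with sgRNA-B.

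Transcripts of several proteins that bind or are carried by these kinesins were higher. Of 15 direct partners, 6 rose with the mean of both guides, 0 fell and 9 did not pass (median 0.12, all genes 0.0007; 1.77% of all genes called higher). CIT, the partner of KIF14, rose by 0.27 (SE 0.04; adjusted p = 0.00281, limma), from 9.26, 9.16 and 9.18 in control to 9.5008, 9.55 and 9.47 with sgRNA-A and 9.44, 9.41 and 9.45 with sgRNA-B. AURKB, the kinase of the passenger complex that KIF20A carries, rose by 0.20 (adjusted p = 0.00451, limma), and its complex member CDCA8 by 0.25, a call lost without control replicate 1 (0.0536). AURKA, which with TPX2 phosphorylates and places KIF11, differed by 0.39, PLK1 by 0.14 and BIRC5 by 0.19. These 3 calls were each lost on leaving out any of at least 7 of the 9 arrays, with adjusted p up to 0.148, 0.125 and 0.204 in limma (in each case the highest without control replicate 1 or 3). Partners that did not pass included PRC1 (0.11), TPX2 (0.09), ECT2 (0.12), INCENP (0.14) and the centralspindlin subunit RACGAP1 (0.09, SE 0.14). ARF6, which binds KIF23 at the midbody, lay lower in all arrays with a guide (-0.12; adjusted p = 0.0845, limma).

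Kinesins of cell division outside the 10 members gave no calls. Of 8, 0 rose and 0 fell in any of the 4 comparisons in limma. With the mean of both guides, 1.77% of all genes were called higher and 1.80% lower. At an unadjusted p below 0.05, 5 lay higher (7.28% of all genes) and 1 lower (1837 of 23931 genes). These 5 included KIF4B, whose values are uncertain, and the dim KIF2B. KIF22, a chromosome arm motor, differed by 0.17 (adjusted p = 0.0849, limma), the kinetochore motor CENPE by 0.16 and the plus-end depolymerase KIF18B by 0.15. KIF2A, a depolymerase at spindle poles related to KIF2C, lay lower in all 6 arrays with a guide (-0.12; adjusted p = 0.0890, limma). KIF2B lay below the level of silent genes in all 3 group means (4.19 to 4.40).

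Genes that control the same phase moved as follows. With the mean of both guides, 1.77% of all genes were called higher and 1.80% lower. Of 20 G2 and M phase control genes, 10 rose and 0 fell with the mean of both guides (median 0.17), CDC20 (0.28; adjusted p = 0.000166, limma), CENPA (0.34), CDC25C (0.37) and CCNB2 (0.23) first. Of 21 spindle and cytokinesis proteins, 7 rose, among them DLGAP5 (0.25) and ASPM (0.30), and 1, CLASP1, fell (-0.17), a call lost on leaving out any of 7 arrays (median of the list 0.09). TTTGAA was found in the promoters of 12 of the 18 phase control genes and 10 of the 21 spindle genes with a window, against 16.2% of all measured genes with one. Of 28 S phase genes, 0 rose and 4 fell (median -0.04), MCM6 by 0.19 on the log2 scale (adjusted p = 0.00513, limma), and 1 of 24 with a window held TTTGAA. Among 23 regulators of cell cycle transcription, FOXM1, which drives many mitotic genes, rose by 0.20 (adjusted p = 0.0127, limma) and the pocket protein gene RBL1 fell by 0.27. FOXM1 was not called without control replicates 1 (0.0586) or 3 (0.0559), nor RBL1 without control replicates 1 (0.139) or 2 (0.0591). MYBL2, added by name for its role, did not pass (0.06). The tubulins, the track on which these motors run, gave 0 calls among 10 measured in limma, which is near the share of all genes. At an unadjusted p below 0.05, 1 lay higher (7.28% of all genes) and 1 lower (1837 of 23931 genes).

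Genes whose pattern over the 9 arrays was nearest to KIF20A were found by the root mean square difference after each gene's own mean was subtracted. The nearest of 23930 genes was RPS15A, a ribosomal protein gene, at 0.036 log2 units, against 0.202 for a flat profile. SCIRT (0.059), C5orf34 (0.060), the phosphatase gene CDC25C (0.060), which activates CDK1, and MEIOC (0.061) came next. RPS15A deviated by -0.32, -0.10 and -0.33 in the control arrays, where KIF20A deviated by -0.34, -0.14 and -0.32. CDC25C was the 1 of these genes in the lists of mitotic genes. The nearest coding neighbours of KIF20A in RefSeq order, BRD8 (0.18) and CDC23 (-0.003), did not pass with the mean of both guides. Of 20 such neighbours of the 10 members, 0 were called in limma with either guide or with both. Of all genes, 0.957% were called higher and 1.22% lower with sgRNA-A. The shares were 1.56% and 1.51% with sgRNA-B, and 1.77% and 1.80% with both. At such shares, 20 genes are too few to tell the neighbours from other genes.

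**Figure D4:**
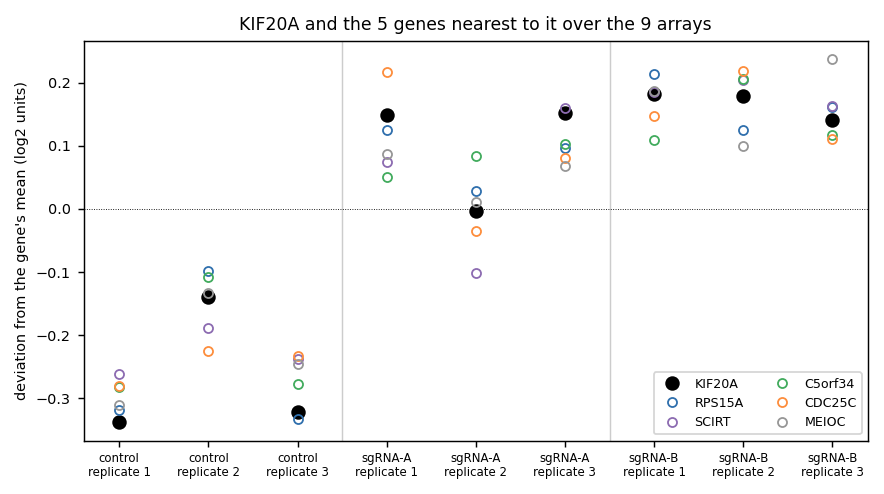
Deviation of KIF20A (black) and the 5 genes nearest to it (open circles) from their own means, in log2 units (y axis), in each of the 9 arrays (x axis). All lie below 0 in the 3 control arrays, and RPS15A follows KIF20A most closely, with control replicate 2 and sgRNA-A replicate 2 lying between the others.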

How the data were processed

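RNA of 9 cultures in 3 groups of 3 was hybridised to Affymetrix arrays. The deposited table holds 1 log2 value per probe set and array, made with RMA by the authors, per the submitters' processing notes; for the RMA version: not given in the sources used here. The method equalises the arrays' distributions, so shifts of all genes together are removed. Of 24733 probe sets, 23934 had 1 symbol; the brightest per symbol was kept, leaving 23931 genes, with no filter on dim genes. All 9 arrays were fitted together, 1 coefficient for each group, by lmFit and eBayes(trend=TRUE) of limma 3.58.1 under R 4.3.3, at 6 residual and 7.27 prior degrees of freedom. The same fit was also tested on simulated data. P-values were adjusted by Benjamini-Hochberg over the 23931 genes. The labels do not say that a replicate number pairs samples, and not every pair of same-numbered arrays had a correlation of deviations over 0.1 (-0.145 to 0.135), so no block was used.

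Members and lists were chosen with earlier results of these data known. Named were the members, all measured direct partners and other division kinesins, up to 4 called genes per other list and comparison with the smallest adjusted p (MYBL2, as a named regulator, and PTPRC, as a marker, outside it), and the 5 genes nearest KIF20A and 8 nearest the members' mean profile. Some listed genes were not analysed here. Alternatives left out each array, added a replicate block or array weights, changed the variance prior, the arrays fitted, the dim filter, the normalization or the adjustment, or tested against a minimum change. The number of arrays limits the precision.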

Additional observations from a re-analysis of the deposited data

Results flagged for a closer look

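MUC1, a mucin used here as an epithelial marker, was the 1 gene of the lists that differed between the clones, and no mitotic kinesin did. It was lower with sgRNA-A than with sgRNA-B by a log2 difference of -0.45 (adjusted p = 0.00963, limma), at 9.15 ± 0.08 (SD, n = 3) against 9.60 ± 0.09, with control at 9.18 ± 0.02. Leaving out replicate 1 or 2 of sgRNA-A (adjusted p = 0.0590 and 0.0522, limma), or replicate 1 or 2 of sgRNA-B (0.0766 and 0.0647), ended this call.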

How the results depend on the processing

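KIF20A kept its direction under all 20 alternatives in each comparison with control where they could be run, and its call under all but a test against a minimum log2 change of 0.1 with sgRNA-A (adjusted p = 0.0734). Restricting the fit to the groups compared does not apply to the mean of both guides, which uses all arrays. The count of members called with sgRNA-A was 1 without a trend in the variance prior or with only the groups compared, and 0 against the minimum change. With sgRNA-B it was 2 without the dimmest 30% or 50% of genes. With both guides it was 1 against the minimum change. Leaving out 1 array gave 1 to 2 members in each of these comparisons and 0 between the clones. The members' median was 0.07 to 0.12 with sgRNA-A, 0.10 to 0.16 with sgRNA-B (highest without control replicate 2), and 0.08 to 0.14 over both guides.

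Over all genes, 522 were called with sgRNA-A, 735 with sgRNA-B, 25 between the clones and 855 over both guides. Leaving out 1 array gave 223 to 435, 353 to 735, 6 to 30 and 405 to 767. Against the minimum change the counts were 107, 194, 10 and 207. Without the dimmest 50% they were 788 with sgRNA-A and 39 between the clones, and with only the groups compared 321 with sgRNA-A. The fits without 1 array, without the dimmest 50% or with only the groups compared used fewer arrays or genes. The test against the minimum change used all of them and asked for a larger difference. The cause of these shifts was not tested.

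The replicate block left 465, 684, 34 and 798 genes called and the members called at 2, 1, 0 and 2, and changed no member's call. The labels do not say whether same-numbered arrays share more than a number. Of the members, 5 changed sign when 1 array was left out, none of them called. KIF18A with sgRNA-A ran from -0.068 to 0.036 and was 0.019 without sgRNA-A replicate 3. Over both guides KIF15 ran from -0.0035 (without sgRNA-A replicate 3) to 0.055, with -0.0031 when control replicate 3 was left out. Between the clones, KIF20B ran from -0.063 to 0.0015, KIF23 from -0.0035 to 0.080 and KIF4A from -0.029 (without sgRNA-B replicate 2) to 0.085.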

Other observations

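Kinesins that carry cargo or build cilia were described for contrast with the mitotic ones. Of 30 measured, 1 rose and 2 fell with the mean of both guides, against 1.77% of all genes called higher and 1.80% lower. The median was -0.01. KIF3C, a neuronal kinesin-2 motor, rose by 0.58 (adjusted p = 0.00530, limma), from 6.52, 6.64 and 6.76 log2 units in control to 7.37, 7.2002 and 7.24 with sgRNA-A and 7.26, 6.90 and 7.36 with sgRNA-B. KIF13A, an endosome motor, fell by 0.27 on the log2 scale (adjusted p = 0.00463, limma). KIFC3, a minus-end motor at adherens junctions, differed by -0.39, a call lost on leaving out any of 7 arrays, with adjusted p up to 0.197 without control replicate 3. Of 20 transport kinesins with a promoter window, 1 held TTTGAA, against 8 of 10 mitotic kinesins and 2 of 8 other kinesins of cell division.

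Of 17 dynein and dynactin genes, the motor that walks opposite to most kinesins, 0 were called with the mean of both guides in limma. Of all genes, 1.77% were called higher and 1.80% lower. At an unadjusted p below 0.05, 2 of the 17 lay higher (7.28% of all genes) and 3 lower (1837 of 23931 genes). With sgRNA-B, DYNC1H1 (-0.24) and DYNLL2 (-0.23) fell, against 1.51% of all genes called lower. DYNC1H1 lost its call without any sgRNA-B replicate or control replicate 3 (0.0509 to 0.0978), and DYNLL2 without 6 of the 9 arrays (up to 0.151 without control replicate 1).

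The genes nearest to the mean profile of the 10 members over the 9 arrays were NDUFA6 (root mean square difference 0.021), STAU1, TMC1, EPHA3, MBNL2, MCMDC2, HDAC1 and HSD17B11 (0.027), against 0.062 for a flat profile. None of these 8 is in the lists of mitotic genes. Only HSD17B11 was called with the mean of both guides (0.14; adjusted p = 0.0324, limma), a call lost on leaving out any of 7 arrays, with adjusted p up to 0.137 without control replicate 1.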
